A study of Homo sapiens with 2 samples.

Results

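The nuclear genes for subunits of the mitochondrial respiratory chain and ATP synthase were compared in SAS cells that carried added ASC or did not. SAS is an established cell line from a human oral cancer. ASC, the product of the gene PYCARD, is an adaptor that links inflammasome sensors to caspase-1. The genes were found by their symbols in the deposited table (NDUF, SDH, UQCR, CYC1, COX4 to COX8 and ATP5 names). Of 24124 genes in the table, 82 carried such a name, and 3 of these are pseudogenes (UQCRBP1, UQCRFS1P1 and UQCRHP1) and were left out. The remaining 79 genes were 38 of complex I, 4 of complex II, 10 of complex III, 11 of complex IV and 16 of complex V. They are spread over 626 listed transcripts.

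The ASC library came from SAS cells that stably carried the plasmid pLKO.AS2 with ASC (ASC cells), and the control library from SAS cells that stably carried the plasmid without it (control cells). Both lines grew in the same medium, DMEM with 10% FBS, 200 µg/ml of G418 and 2 µg/ml of puromycin. Poly(A) RNA was sequenced once for each line, so every comparison is of 1 ASC library with 1 control library. No difference has a replicate check, no test between conditions is possible, and differences between lines, cultures and library preparations cannot be told apart from ASC. In such bulk RNA, fewer cells with a transcript and less of it per cell cannot be told apart either.

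The respiratory chain passes electrons from NADH and succinate to oxygen in the inner mitochondrial membrane. Complexes I, III and IV use this flow to pump protons, complex II feeds electrons in without pumping, and complex V lets the protons back and makes ATP. Each complex has a small set of catalytic, redox or rotary subunits, and most have many supernumerary subunits around it that serve in assembly and stability. Part of the central subunits is encoded in mitochondrial DNA, and all others are made in the cytosol and imported.

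Levels are RPKM, estimated reads divided by transcript length and library depth, summed over the transcripts of a gene. Log2 ratios are ASC over control with 1 RPKM added to each value, so that differences of weakly expressed genes come out too small. A gene was compared when it had at least 1 RPKM in either library, which 12471 genes and all 79 subunit genes did. The ASC library held 31426491 listed reads and the control library 31289581. PYCARD had 266.5 RPKM in ASC cells and 1.36 RPKM in control cells, in the direction of the labels. All 7 squamous epithelium markers were compared, with a sum of 907 RPKM in ASC cells and 941 RPKM in control cells. They went both ways, from -0.46 for KRT6A and -0.44 for KRT5 to 0.33 for CDH1, 0.42 for KRT14 and 0.45 for SFN. None of 4 fibroblast and 2 leukocyte markers in the table reached 1 RPKM, and of 3 endothelium markers only CDH5 did, at 2.23 RPKM in the ASC library and 1.23 RPKM in the control library. The median log2 ratio of all compared genes was 0.01.

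The subunit genes were slightly lower in the ASC library as a group, and only the weakly expressed COX6B2 differed by over 2-fold in plain RPKM. Their summed level was 7370 RPKM in ASC cells and 8160 RPKM in control cells, which is 90.3% of the control level and a log2 ratio of -0.15. This was 1.54% of all RPKM in ASC cells and 1.67% in control cells, while the sum over all compared genes had a log2 ratio of -0.03. The median gene of the chain stood at 74.4 RPKM in ASC cells and 81.8 RPKM in control cells. Of the 79 genes, 58 (73.4%) had a log2 ratio below 0, against 48% of all compared genes, and 21 lay above 0, against 52% of all compared genes. The median log2 ratio was -0.10. None was 2-fold higher, against 0.617% of all compared genes, and none was 2-fold lower, against 0.265%.

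A smaller difference was also counted, a log2 ratio of 0.32 or more in size, which on this scale is at least 25% higher or at least 20% lower. By this count 1 subunit gene was higher in ASC cells and 8 were lower. The 8 lower genes are 10.1% of the subunit genes, close to the 8.72% of all compared genes that were lower by as much. The 1 higher gene is 1.27% of them, against 8.88% of all compared genes. The share of lower genes was thus near the background. Of 331 subunit transcripts that reached 1 RPKM, 223 (67.4%) were lower in ASC cells, against 49.9% of all 34527 transcripts that did. In reads scaled to library depth, with nothing added, the sum had a log2 ratio of -0.10 (95% interval -0.11 to -0.10). Intervals throughout cover counting error only.

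**Figure D1:**
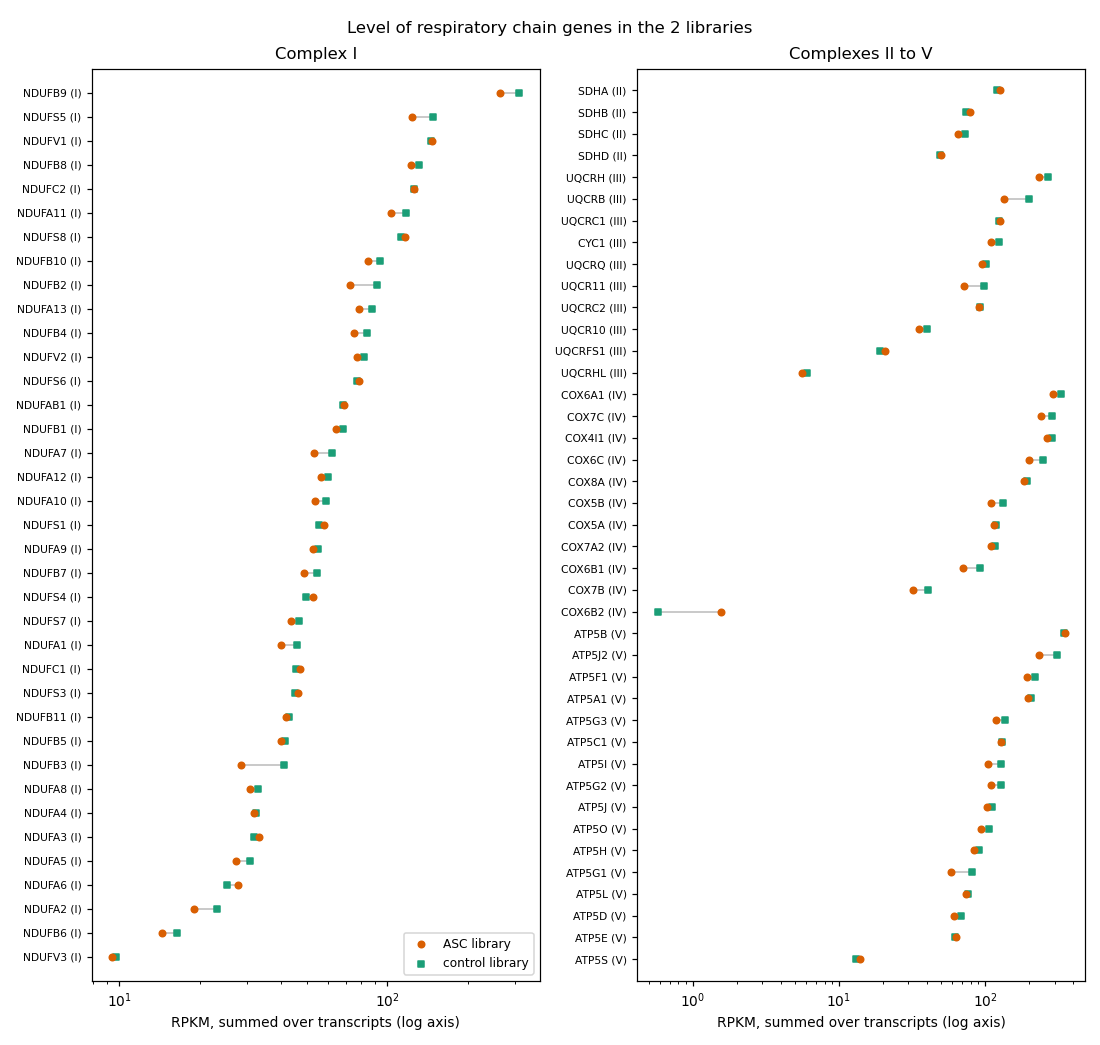
Level of the subunit genes in RPKM summed over transcripts (log axis), with ASC cells as circles, control cells as squares and complex numbers in brackets. The circle lies left of the square for 58 genes, and COX6B2 has the widest gap, at the lowest level.

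Promoters are shown for 3 of the lowest genes and for 1 gene near 0. RefSeq sequence (GRCh38.p14) of the 300 bases from 250 before to 50 after the gene start was found for 64 of the 79 genes. They were searched on both strands for the letters of factors known for many respiratory chain promoters, GCGCA and GCGC with any 1 base between them for NRF1, CCGGAAG for GABPA (an ETS factor, also called NRF2 in this field) and AAGATGGC for YY1. Capitals mark these letters and their reverse complements. UQCR11 (chr19:1605413-1605712, minus strand), COX6B1 (chr19:35648073-35648372, plus strand) and ATP5G1 (chr17:48892537-48892836, plus strand, listed in RefSeq as ATP5MC1) were lower in the ASC library, with log2 ratios of -0.45, -0.36 and -0.46. UQCRC1 (chr3:48609597-48609896, minus strand) stood at 0.02. It was picked as the gene nearest 0 among those with NRF1 letters, so its NRF1 letters were fixed in advance. The window of NDUFV1, at 0.01, held none of these letters and is not printed.
UQCR11: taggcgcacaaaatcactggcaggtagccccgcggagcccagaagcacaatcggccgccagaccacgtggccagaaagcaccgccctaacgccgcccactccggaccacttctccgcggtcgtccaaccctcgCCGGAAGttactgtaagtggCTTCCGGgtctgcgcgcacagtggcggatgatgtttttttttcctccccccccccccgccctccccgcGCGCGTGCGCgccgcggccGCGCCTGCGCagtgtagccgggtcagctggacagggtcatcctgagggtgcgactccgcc
COX6B1: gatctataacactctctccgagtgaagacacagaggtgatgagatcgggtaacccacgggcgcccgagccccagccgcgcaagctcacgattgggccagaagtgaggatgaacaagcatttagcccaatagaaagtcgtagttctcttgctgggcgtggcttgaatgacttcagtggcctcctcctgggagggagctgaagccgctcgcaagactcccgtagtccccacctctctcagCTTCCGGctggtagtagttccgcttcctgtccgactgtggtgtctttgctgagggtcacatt
ATP5G1: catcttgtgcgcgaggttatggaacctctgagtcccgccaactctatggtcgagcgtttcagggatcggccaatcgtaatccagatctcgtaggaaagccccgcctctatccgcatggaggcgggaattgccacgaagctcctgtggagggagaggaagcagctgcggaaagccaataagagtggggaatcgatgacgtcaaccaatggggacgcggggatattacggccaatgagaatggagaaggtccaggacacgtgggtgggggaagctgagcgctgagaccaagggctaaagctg
UQCRC1: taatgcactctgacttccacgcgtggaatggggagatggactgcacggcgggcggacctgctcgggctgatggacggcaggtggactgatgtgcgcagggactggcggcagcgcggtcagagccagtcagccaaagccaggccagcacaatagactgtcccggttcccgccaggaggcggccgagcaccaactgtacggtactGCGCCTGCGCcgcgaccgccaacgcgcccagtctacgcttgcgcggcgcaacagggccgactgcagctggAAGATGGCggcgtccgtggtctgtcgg

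The UQCR11 window holds NRF1 and GABPA letters, that of COX6B1 GABPA letters, that of UQCRC1 NRF1 and YY1 letters, and that of ATP5G1 none of these letters. Over the 64 promoters, 15 (23.4%) held NRF1 letters, against 6.28% of 27305 promoters of all genes and 12.7% of 9502 promoters of compared genes. GABPA letters stood in 19 (29.7%), against 10.7% of all and 20.8% of compared genes. YY1 letters stood in 11 (17.2%), against 3.03% of all and 5.85% of compared genes. The median log2 ratio was -0.09 for the 15 genes with and -0.09 for the 49 genes without NRF1 letters, -0.12 with and -0.08 without GABPA letters, and -0.05 with and -0.09 without YY1 letters. A match of letters is a description of the window and not a binding site. Among the factors themselves, NRF1 stood at 7.62 RPKM in ASC cells and 6.65 RPKM in control cells, GABPA at 5.08 RPKM in ASC cells and 5.80 RPKM in control cells, and YY1 at 48.8 RPKM in ASC cells and 44.0 RPKM in control cells.

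Complex I, the NADH dehydrogenase, had a summed level of 2495 RPKM in ASC cells and 2689 RPKM in control cells. On the log2 scale the sum stood at -0.11, the median gene stood at -0.09, and 26 of 38 genes lay below 0. Summed reads had a log2 ratio of -0.09 (95% interval -0.10 to -0.08). Its 7 nuclear core subunits, which carry the flavin, the iron-sulfur clusters and the quinone site, were the part with the smallest difference. They summed to 523.1 RPKM in ASC cells and 522.7 RPKM in control cells, and 5 of them lay above 0.

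NDUFV1, the flavin subunit that oxidises NADH, stood at 146.4 RPKM in ASC cells and 145.5 RPKM in control cells. NDUFS1, the largest iron-sulfur subunit, stood at 57.9 RPKM in ASC cells and 55.5 RPKM in control cells. NDUFS3, of the quinone-binding module, had a log2 ratio of 0.04. The iron-sulfur subunit gene NDUFS8 stood at 0.04, while NDUFS7 stood at -0.10 and NDUFV2 at -0.08. Several of these small ratios change sign with the setting: the main transcript stood at -0.03 for NDUFS1 and 0.16 for NDUFS7, and NDUFS3 came to -0.022 with chromosomal neighbours subtracted. None of the 7 core genes was past 25% higher or 20% lower. The gene body of NDUFS1 overlaps EEF1B2, at 517.7 RPKM in ASC cells and 601.1 RPKM in control cells, and the libraries do not mark strand.

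The supernumerary subunits of complex I were lower by more. The 31 genes summed to 1972 RPKM in ASC cells and 2167 RPKM in control cells, a log2 ratio of -0.14, and 24 lay below 0. All 11 NDUFB genes, most of whose products sit in the membrane arm, lay below 0, with a median of -0.15 and a sum of 856.7 RPKM in ASC cells and 977.7 RPKM in control cells. Of the 14 NDUFA genes, 11 lay below 0, with a median of -0.11. The 6 remaining supernumerary genes (NDUFC1, NDUFC2, NDUFS4, NDUFS5, NDUFS6 and NDUFV3) had a median of 0.02, with 4 above 0 and 2 below. Their sum was lower, at 437.8 RPKM in ASC cells and 456.1 RPKM in control cells. NDUFS5 among them stood at 123.3 RPKM in ASC cells and 148.3 RPKM in control cells (-0.26).

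NDUFB3, a small membrane-arm subunit, had the lowest log2 ratio of complex I. It stood at 28.5 RPKM with 721 reads in ASC cells and 41.3 RPKM with 1055 reads in control cells, so its level was 1.45-fold lower with ASC, a log2 ratio of -0.52. Its reads had a log2 ratio of -0.54 (95% interval -0.68 to -0.41). The gene (ENSG00000119013.8) is at chr2:201071433-201085750 in hg38, plus strand. NDUFB2, another membrane-arm subunit, stood at 72.7 RPKM in ASC cells and 91.7 RPKM in control cells (log2 ratio -0.33), and its gene body overlaps BRAF on the opposite strand, at 10.4 RPKM in ASC cells and 12.2 RPKM in control cells. NDUFA2, of the NADH-oxidising arm, stood at 19.0 RPKM in ASC cells and 23.2 RPKM in control cells (-0.27). NDUFB9, the most abundant gene of the complex, stood at 262.6 RPKM in ASC cells and 311.6 RPKM in control cells (-0.25).

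At the upper end of complex I stood NDUFA6 and NDUFS4. NDUFA6, a subunit of the LYR family, had 27.8 RPKM in ASC cells and 25.3 RPKM in control cells, a log2 ratio of 0.13. It came to -0.01 with transcripts annotated as protein-coding only, since its main transcript is not in the annotation used. NDUFS4, a subunit whose loss causes Leigh syndrome in people, had 52.9 RPKM in ASC cells and 49.8 RPKM in control cells (0.08). NDUFA4, which by name belongs to complex I but is known as a subunit of complex IV, did not differ beyond counting error, at 31.9 RPKM in ASC cells and 32.3 RPKM in control cells (log2 ratio of reads -0.01, 95% interval -0.10 to 0.08).

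**Figure D2:**
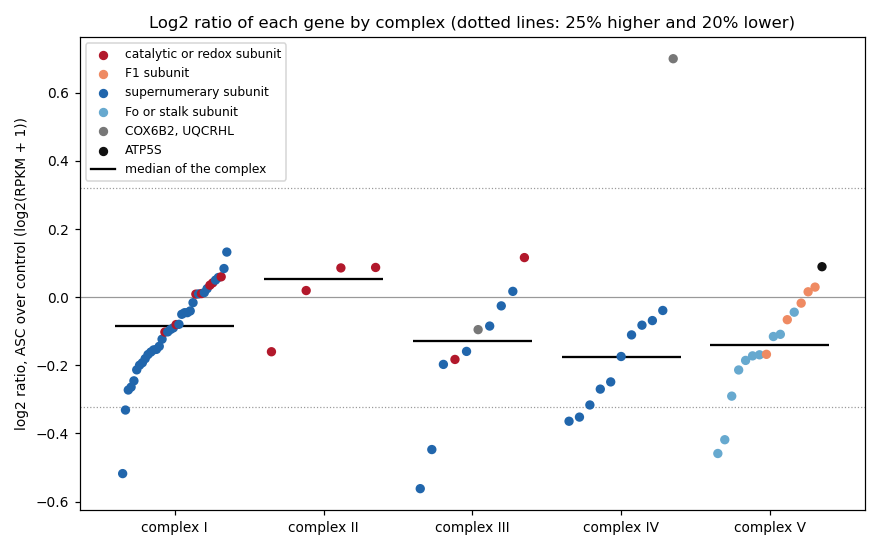
Log2 ratio of each gene (ASC over control, log2(RPKM + 1) scale, y axis) by complex (x axis), ordered within a complex and coloured by the kind of subunit, with a black line at the median of each complex and dotted lines at a log2 ratio of 0.32 in size. The medians are -0.09, 0.05, -0.13, -0.17 and -0.14 for complexes I to V, and COX6B2 lies alone above the upper dotted line at 0.70.

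Complex II, succinate dehydrogenase, links the citric acid cycle to the chain and has no supernumerary subunits among these genes. It was the only complex whose sum was not lower in the ASC library, at 322.9 RPKM in ASC cells and 317.9 RPKM in control cells (log2 ratio 0.02). In summed reads it was 0.04 (95% interval 0.01 to 0.06). With the median of chromosomal neighbours subtracted from each gene, the log2 ratio of the sum was -0.024, so its sign depends on that step.

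The flavoprotein gene SDHA stood at 127.8 RPKM in ASC cells and 120.3 RPKM in control cells, a log2 ratio of 0.09. The iron-sulfur subunit gene SDHB stood at 79.0 RPKM in ASC cells and 74.4 RPKM in control cells, also 0.09. The 2 genes of the membrane anchor differed in direction. SDHC stood at 65.7 RPKM in ASC cells and 73.6 RPKM in control cells (-0.16), and SDHD at 50.3 RPKM in ASC cells and 49.6 RPKM in control cells (0.02). SDHA has transcribed pseudogene copies, of which SDHAP1 had 12.8 RPKM in ASC cells and 13.7 RPKM in control cells, and reads can be shared between them.

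Complex III, the cytochrome bc1 complex, had the largest difference of the 5 sums in RPKM, at 927.4 RPKM in ASC cells and 1077 RPKM in control cells. The log2 ratio of the sum was -0.22, and that of summed reads -0.16 (95% interval -0.18 to -0.14). In summed reads complex IV differed by more (-0.19), and with chromosomal neighbours subtracted complex V did (-0.17, against -0.16 for complex III), so the order of the complexes depends on the measure. The median gene stood at -0.13, and 8 of 10 genes lay below 0. The lowest ratios were those of UQCRB and UQCR11. UQCRB, a small subunit near the quinone site, stood at 134.5 RPKM with 3946 reads in ASC cells and 199.0 RPKM with 5809 reads in control cells. Its level was 1.48-fold lower with ASC, a log2 ratio of -0.56 and the lowest of all 79 genes. Its reads had a log2 ratio of -0.55 (95% interval -0.61 to -0.49), and all 6 of its transcripts with at least 1 RPKM were lower in the ASC library. The gene (ENSG00000156467.9) is at chr8:96225920-96235634 in hg38, minus strand.

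UQCR11, the smallest subunit of the complex, stood at 72.1 RPKM with 2396 reads in ASC cells and 98.7 RPKM with 3189 reads in control cells, a log2 ratio of -0.45. All 5 of its transcripts with at least 1 RPKM were lower in the ASC library. UQCRH, the hinge protein and the most abundant gene of the complex, stood at 235.3 RPKM in ASC cells and 269.9 RPKM in control cells (-0.20), or -0.37 with its protein-coding transcript only. Its near-identical copy UQCRHL stood at 5.59 RPKM in ASC cells and 6.04 RPKM in control cells (-0.10), and reads can be shared between them. The 2 nuclear redox subunits stood on opposite sides of 0. CYC1, which encodes cytochrome c1, had 109.5 RPKM in ASC cells and 124.5 RPKM in control cells (-0.18). UQCRFS1, the Rieske iron-sulfur protein, had 20.8 RPKM in ASC cells and 19.1 RPKM in control cells (0.12). The large core proteins UQCRC1 and UQCRC2, which belong to a peptidase family, had log2 ratios of 0.02 and -0.03 over all transcripts. With transcripts annotated as protein-coding they stood at -0.080 and -0.17, and the main transcript of UQCRC2, annotated for nonsense-mediated decay, stood at 0.29.

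Complex IV, cytochrome c oxidase, has its catalytic subunits encoded in mitochondrial DNA, so all its genes here are supernumerary subunits. They summed to 1626 RPKM in ASC cells and 1851 RPKM in control cells, a log2 ratio of -0.19, and 10 of 11 lay below 0. In summed reads it was -0.19 (95% interval -0.21 to -0.17). COX6B1, which faces the intermembrane space, stood at 71.3 RPKM with 1694 reads in ASC cells and 92.1 RPKM with 2188 reads in control cells (-0.36). COX7B stood at 32.0 RPKM with 1195 reads in ASC cells and 41.1 RPKM with 1671 reads in control cells (-0.35), and its reads had a log2 ratio of -0.48. COX6C stood at 201.0 RPKM in ASC cells and 250.6 RPKM in control cells (-0.32), just short of 20% lower, or -0.20 with protein-coding transcripts only.

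The remaining ubiquitous genes of complex IV differed by less. COX6A1, the most abundant, stood at 292.0 RPKM in ASC cells and 329.6 RPKM in control cells (-0.17). COX4I1, which carries a regulatory site for ATP, stood at 264.9 RPKM in ASC cells and 286.1 RPKM in control cells (-0.11). COX7A2, COX8A and COX5A had log2 ratios of -0.08, -0.07 and -0.04. COX6B2, the form of COX6B known from testis, was the exception in direction. It stood at 1.56 RPKM with 96.5 reads in ASC cells and 0.576 RPKM with 32 reads in control cells, a log2 ratio of 0.70. Its reads had a log2 ratio of 1.60 (95% interval 1.01 to 2.23). This is a small amount of RNA beside COX6B1, and 1 transcript, ENST00000593184.5, held 56.0% of its RPKM in ASC cells and 15.4% in control cells.

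In complex V, the ATP synthase, the genes of the catalytic head differed less as a group than those of the membrane part and stalk. The complex summed to 1998 RPKM in ASC cells and 2224 RPKM in control cells, a log2 ratio of -0.15, and 13 of 16 genes lay below 0. In summed reads it was -0.08 (95% interval -0.10 to -0.07). The 5 genes of the F1 head summed to 804.0 RPKM in ASC cells and 817.4 RPKM in control cells, with a median of -0.02. The 10 genes of the Fo part and the stalk summed to 1180 RPKM in ASC cells and 1394 RPKM in control cells. All 10 lay below 0, with a median of -0.18. The groups overlapped, with ATP5D of the head at -0.17 and ATP5L of the Fo part at -0.04. Median transcript lengths were 1780 nt for the head and 630 nt for the Fo part and stalk, and the part of length was not tested.

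In the head, the catalytic beta subunit gene ATP5B was the most abundant of all 79 genes in the chain, at 352.4 RPKM in ASC cells and 348.5 RPKM in control cells (0.02). The alpha subunit gene ATP5A1 stood at 197.9 RPKM in ASC cells and 207.3 RPKM in control cells (-0.07). ATP5E, of the rotor, had a log2 ratio of 0.03, and ATP5D, also of the rotor, one of -0.17. ATP5S, a coupling factor outside the synthase itself, stood at 13.9 RPKM in ASC cells and 13.0 RPKM in control cells (0.09). A transcript of ATP5S annotated as non-coding held 52.0% of its RPKM in ASC cells and 34.7% in control cells. The log2 ratio of ATP5S turned to -0.55 with protein-coding transcripts only, and was 0.58 for that main transcript.

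The c subunit, which forms the rotating ring in the membrane, is made from 3 genes that encode the same mature protein. Together they stood at 289.7 RPKM in ASC cells and 346.6 RPKM in control cells, and all 3 were lower. ATP5G1 stood at 59.1 RPKM with 1288 reads in ASC cells and 81.5 RPKM with 1781 reads in control cells, a log2 ratio of -0.46. ATP5G2 stood at 110.7 RPKM in ASC cells and 128.5 RPKM in control cells (-0.21). ATP5G3 stood at 120.0 RPKM in ASC cells and 136.6 RPKM in control cells (-0.19). ATP5G1 thus supplied 20.4% of the c subunit RPKM in ASC cells and 23.5% in control cells.

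Of the other membrane subunits, ATP5J2 (subunit f) stood at 233.6 RPKM with 3528 reads in ASC cells and 312.6 RPKM with 4774 reads in control cells, a log2 ratio of -0.42. ATP5I (subunit e) stood at 105.3 RPKM in ASC cells and 129.1 RPKM in control cells (-0.29). ATP5L (subunit g) was the nearest to 0 of the Fo and stalk genes, at 74.4 RPKM in ASC cells and 76.7 RPKM in control cells (-0.04). The genes of the peripheral stalk, ATP5F1, ATP5H, ATP5J and ATP5O, lay between -0.17 and -0.11. A readthrough transcript unit, ATP5J2-PTCD1, is listed apart, at 6.84 RPKM in ASC cells and 7.60 RPKM in control cells.

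Across the complexes, genes were then grouped by the kind of subunit, a grouping formed after the values had been seen. The 18 catalytic, redox and F1 subunit genes summed to 1780 RPKM in ASC cells and 1802 RPKM in control cells, which is 98.8% of the control level. Their median log2 ratio was 0.01, with 11 above 0 and 7 below. The 58 supernumerary and Fo subunit genes summed to 5569 RPKM in ASC cells and 6339 RPKM in control cells, 87.9% of the control level. Their median was -0.15, with 50 below 0 and 8 above, and they include all 8 genes that were at least 20% lower. The rotary c ring genes ATP5G1, ATP5G2 and ATP5G3 and the stalk genes were counted with Fo. UQCRC1 and UQCRC2 were counted as supernumerary, and the membrane anchors SDHC and SDHD with the catalytic and redox genes. COX6B2, UQCRHL and ATP5S are in neither group. Since the grouping was chosen on these values, the difference is a description of these 2 libraries.

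The 2 kinds of subunit also differ in size, and the log2 ratio moved with transcript length. The median transcript length, weighted by RPKM, was 1293 nt for the catalytic, redox and F1 genes and 708.0 nt for the supernumerary and Fo genes. Across the 79 genes, Spearman's rho between length and log2 ratio was 0.45, a description across genes that share the same 2 libraries. Across 12470 compared genes with a length it was 0.05. The 51 subunit genes under 1000 nt had a median of -0.16, with 42 below 0, and the 28 longer ones a median of -0.02, with 16 below 0. Among genes under 1000 nt, the 46 supernumerary and Fo genes had a median of -0.17 and the 5 catalytic, redox and F1 genes one of -0.08.

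Other abundant genes outside the ribosomal proteins showed a like order, with smaller differences. Among other genes of at least 20 RPKM, ribosomal protein genes left out, 57 genes under 600 nt had a median of -0.07 and 360 genes of 600 to 1000 nt one of -0.02. The medians were 0.03 for 1391 genes of 1000 to 2000 nt and 0.04 for 1667 genes of 2000 to 4000 nt. The subunit genes in the same bins had medians of -0.19 (12 genes), -0.15 (39 genes), -0.04 (21 genes) and 0.06 (7 genes). With ribosomal protein and subunit genes counted in, 103 genes under 600 nt had a median of -0.10, with 72.8% below 0. Without them, 59.6% lay below 0. For 600 to 1000 nt the median was then -0.07 (484 genes), with 63.0% below 0, against 55.8% without them. Ribosomal protein genes were not summarised apart. After subtraction of a smooth length trend fitted over all compared genes, the log2 ratio of the summed subunits was -0.11. The medians then moved to -0.064 over all subunit genes, -0.046 for complex I and -0.11 for complex IV. GC content of the transcripts had a rho of -0.09 with the log2 ratio. The part of length in the difference between subunit kinds was not tested.

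**Figure D3:**
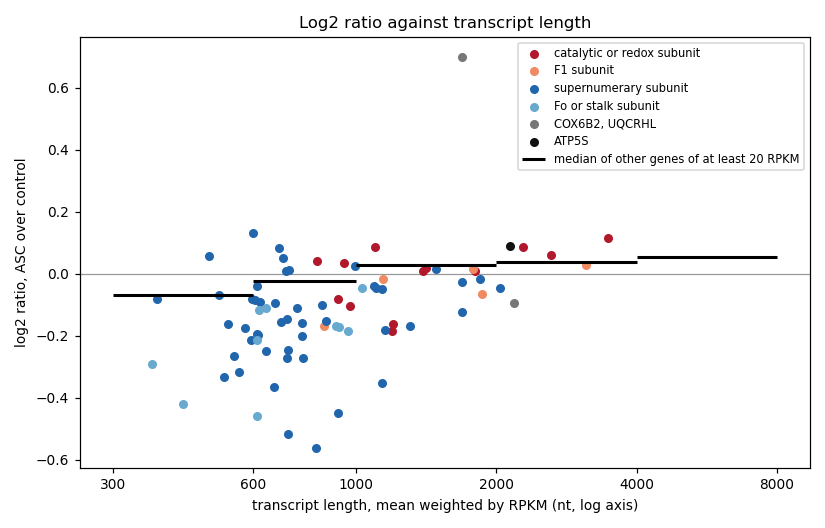
Log2 ratio of each subunit gene (ASC over control, y axis) against its transcript length in nt (mean weighted by RPKM, log axis), coloured by the kind of subunit. Black bars give the median of other genes of at least 20 RPKM, ribosomal protein genes left out, in 5 length bins. Subunit genes under 1000 nt have a median of -0.16 and longer ones of -0.02, and the black bars move from -0.07 in the shortest bin to 0.05 in the longest.

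The log2 ratio of subunit genes also moved with that of their neighbours on the chromosome. For each gene the median log2 ratio of the 50 nearest compared genes was taken, and its Spearman's rho with the gene's own log2 ratio was 0.42 over the 79 genes. All 429 compared genes of chromosome 8 had a median of -0.10, and its 4 subunit genes UQCRB, COX6C, NDUFB9 and CYC1 all lay below 0, with a sum of 707.7 RPKM in ASC cells and 885.6 RPKM in control cells. Relative to their neighbours, UQCRB stood at -0.34, COX6C at -0.11, NDUFB9 at -0.19 and CYC1 at -0.01. CYC1 was thus no lower than the genes around it, while UQCRB was.

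Chromosomes 2 and 7 had medians of -0.15 over 833 genes and -0.13 over 628 genes, and chromosome 20 one of 0.16 over 350 genes. COX5B on chromosome 2, at 110.8 RPKM in ASC cells and 133.8 RPKM in control cells (-0.27), had neighbours with a median of -0.25. NDUFB2 on chromosome 7 came to -0.14 relative to its neighbours. NDUFA4 on chromosome 7, nearly equal in both libraries, lies among genes with a median of 0.31, and came to -0.33 relative to them. ATP5E, the 1 subunit gene on chromosome 20, stood at 0.03 among neighbours at 0.21. By contrast, COX6B1 on chromosome 19 and ATP5G1 on chromosome 17 lie among genes with medians of 0.08 and 0.04 and came to -0.45 and -0.50 relative to them. Without the 14 subunit genes on chromosomes 2, 7, 8 and 20, which were singled out after the values had been seen, 65 genes were left, with a log2 ratio of the sum of -0.11. The part of chromosomal position in these differences was not tested.

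**Figure D4:**
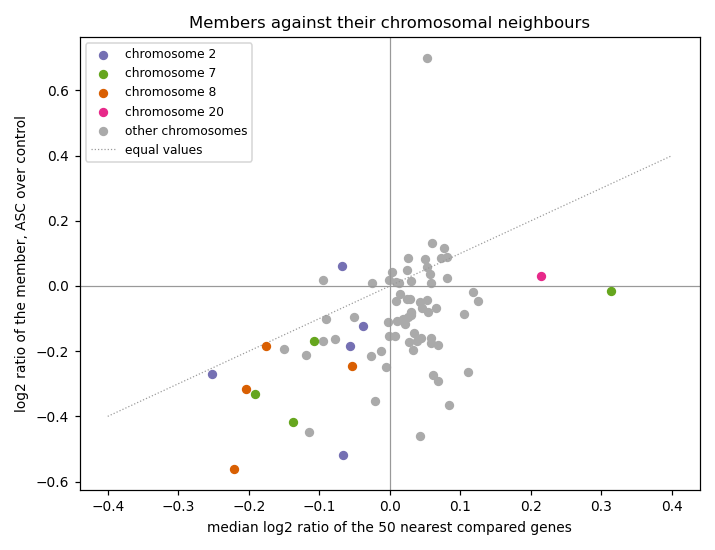
Log2 ratio of each subunit gene (y axis) against the median log2 ratio of the 50 nearest compared genes on its chromosome (x axis), with genes of chromosomes 2, 7, 8 and 20 in colour and a dotted line at equal values. The 4 genes of chromosome 8 lie at or below the dotted line, with neighbours between -0.22 and -0.05.

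The genes around the chain were closer to equal than the supernumerary subunits, but they are also longer. Median lengths were 1291 nt for assembly factor, 1430 nt for carrier and 1440 nt for import genes. For citric acid cycle and pyruvate dehydrogenase genes the median length was 1889 nt. The supernumerary and Fo genes had 708.0 nt. Subunit genes of at least 1000 nt had a median log2 ratio of -0.02. The part of length in this contrast was not tested. All 59 listed assembly factor genes were compared, with a median log2 ratio of -0.03, 27 above 0 and 32 below. At least 25% higher were 2 of them (3.39%, against 8.88% of all compared genes), and 2 were at least 20% lower (3.39%, against 8.72%). By complex their medians were -0.05 for complex I (18 genes), -0.02 for complex II (4 genes), 0.04 for complex III (6 genes), 0.00 for complex IV (26 genes) and -0.08 for complex V (5 genes). COX19, a copper-handling factor of complex IV, stood at 13.6 RPKM with 1382 reads in ASC cells and 7.05 RPKM with 792.8 reads in control cells, a log2 ratio of 0.86, and its neighbours on chromosome 7 had a median of 0.32. SDHAF3, an assembly factor of complex II, stood at 9.71 RPKM in ASC cells and 6.65 RPKM in control cells (0.49), but its reads were close, at 308 in ASC cells and 297 in control cells. PET100, for complex IV, and COA1 had log2 ratios of -0.35 and -0.33, among neighbours with medians of -0.18 and -0.15. TTC19, for complex III, had 0.29, among neighbours with a median of 0.03.

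Cytochrome c, the soluble carrier between complexes III and IV, went the other way from most subunits. CYCS stood at 85.1 RPKM with 4630 reads in ASC cells and 66.5 RPKM with 3338 reads in control cells, a log2 ratio of 0.35. Its reads had a log2 ratio of 0.48 (95% interval 0.41 to 0.54), and the genes around it had a median of -0.09. The 12 cytochrome c and carrier genes had a median of 0.04, with ETFDH, which passes electrons from fatty acid oxidation to quinone, at -0.34. The ATP carrier genes SLC25A5 and SLC25A6 had log2 ratios of -0.02 and 0.04. Subunit genes outside the name patterns lay below 0 as well. USMG5 and C14orf2, both small subunits of complex V, had log2 ratios of -0.13 and -0.10, among neighbours with medians of -0.09 and 0.07. The inhibitor gene ATPIF1 had -0.09, among neighbours with a median of 0.07. COX7A2L, a factor of respiratory supercomplexes, had -0.19, close to the median of its neighbours, -0.17. NDUFA4L2 stood at -0.01, with 1.04 RPKM in ASC cells and 1.06 RPKM in control cells.

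Of 18 citric acid cycle and pyruvate dehydrogenase genes outside complex II, 10 lay above 0 and 8 below, with a median of 0.04. PDHA1, PDHB, PDHX and DLAT, of the pyruvate dehydrogenase complex, were all among those above 0. The 18 genes summed to 766.4 RPKM in ASC cells and 796.4 RPKM in control cells. SUCLG1, of succinyl-CoA ligase, stood at -0.32 and PDHX, of the pyruvate dehydrogenase complex, at 0.28, while citrate synthase (CS) had 61.6 RPKM in ASC cells and 60.0 RPKM in control cells. The chromosomal neighbours of SUCLG1 had a median of -0.19, and those of PDHX one of 0.09. Of 19 mitochondrial import genes, 14 lay above 0, with a median of 0.07. Among 16 compared regulators of mitochondrial biogenesis the median was -0.01. TFAM, which packages mitochondrial DNA and serves in its transcription, had 61.6 RPKM in ASC cells and 61.1 RPKM in control cells. MTERF1, a termination factor of mitochondrial transcription, stood at 5.58 RPKM in ASC cells and 8.65 RPKM in control cells (-0.55), and the mitochondrial RNA polymerase gene POLRMT at -0.31. The neighbours of MTERF1 had a median of -0.21, and those of POLRMT one of -0.09. The 13 subunit genes of mitochondrial DNA had between 0 and 68.1 reads each and summed to 6.71 RPKM in ASC cells and 6.79 RPKM in control cells, a level that allows no comparison with the nuclear genes.

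**Figure D5:**
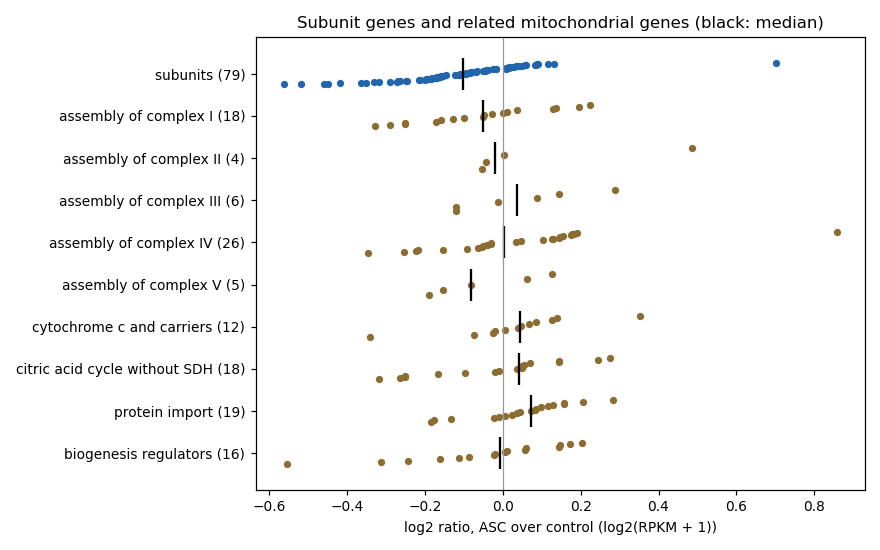
Log2 ratio (ASC over control, log2(RPKM + 1) scale, x axis) of each subunit gene and of each gene in 9 related lists (y axis, number of compared genes in brackets), with a black line at each median. The subunits have the lowest median, -0.10, and the import genes one of 0.07. COX19 is the highest point of the assembly lists, at 0.86. The citric acid cycle list also holds the pyruvate dehydrogenase genes PDHA1, PDHB, PDHX and DLAT.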

How the data were processed

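Per the file headers, the deposited table holds, for each of 134092 transcripts, estimated counts of reads (fractional, not scaled to depth) and RPKM for each of the 2 libraries. Per the submitters' processing notes the build is hg38. The aligner, the quantifier and their gene annotation were not given in the sources used here. Poly(A) RNA was extracted with TRIzol and sequenced with an unstranded TruSeq kit, per the labels' protocols. Transcripts were matched to GENCODE release 29 for biotype and position (99.9% of identifiers found), and 284 gene names turned into dates by a spreadsheet were restored.

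RPKM and reads were summed per gene, and log2((RPKM + 1) ASC / (RPKM + 1) control) was computed without further scaling. Exact (Clopper-Pearson) 95% intervals used rounded estimated reads scaled to the library constant of the deposited RPKM (35660974 reads for ASC and 35780293 for control). They cover counting error only, leaving out PCR copies and the error of splitting reads among similar transcripts. No test was run, since each group has 1 library. Counted were genes at least 2-fold, 25% higher or 20% lower. The procedure was tested on simulated data. Alternatives varied the added value, the filter, the scaling, the transcripts summed, the genes included, and the subtraction of a length trend (statsmodels lowess) or of chromosomal neighbours. Members, lists and classes were chosen with earlier results of these data known. Named genes are, per complex, the 3 lowest, the 2 highest and the most abundant, with paralogue groups, core subunits, NDUFA4, up to 3 genes per related list and PYCARD. A gene that the rule names is not reported here. Further genes named for their role, position or promoter (such as UQCRC1, COX5B, ATP5E, CS and TFAM) were chosen after their values were seen. Python 3.11.15 with pandas 2.3.3, numpy 2.4.6, scipy 1.17.1 and statsmodels 0.14.6, and edgeR 4.0.16 (TMM factors only) in R 4.3.3, were used.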

Additional observations from a re-analysis of the deposited data

How the results depend on the processing

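Under 15 alternatives, of which 2 were chosen after seeing the data, 285 values of 19 results were recomputed. Of these, 244 stayed within the counting interval (sums) or within 1.5 times with the same sign (medians and counts). Some of them could not move. The sums do not use the added value, all subunit genes pass with or without the filter at 1 RPKM, and changes of membership leave other complexes untouched. The number 244 is thus no measure of stability. Only the sum of complex II (0.02) and the median of catalytic, redox and F1 genes (0.01) changed sign, to -0.024 and -0.013 with neighbours subtracted. Over all subunit genes the log2 ratio of the sum (-0.15) was -0.15 with TMM scaling, -0.16 centred on the median of all genes, -0.12 in CPM, -0.14 with neighbours subtracted, -0.11 with a length trend subtracted and -0.11 without chromosomes 2, 7, 8 and 20. In CPM the sums of complexes III and V were -0.17 and -0.095. With the highest transcript per gene, complexes I and V were -0.12 and -0.13, and with protein-coding transcripts complex III was -0.27. With neighbours subtracted, complexes III to V were -0.16, -0.16 and -0.17. With the length trend subtracted, complexes I, III, IV and V were -0.069, -0.19, -0.13 and -0.13. Without those 4 chromosomes they were -0.077, -0.14, -0.16 and -0.12, and 4 genes in place of 8 were at least 20% lower, since the other 4 were among those left out. The median of all subunit genes was -0.064 with the length trend, that of complex I -0.046 with it, that of complex II 0.034 with protein-coding transcripts and 0.018 with neighbours subtracted, and that of complex IV -0.11 with neighbours, with the length trend and without those chromosomes. For the catalytic, redox and F1 genes it was 0.0053 with TMM, 0.0032 centred and in CPM, 0.026 with protein-coding transcripts and 0.0056 with the length trend. COX6B2 alone was 2-fold higher (1 gene) with a pseudocount of 0.1 and in CPM, and no gene (0) was 25% higher with a filter at 5 RPKM or without COX6B2, UQCRHL and ATP5S. Apart from settings that leave genes out, the cause of these shifts was not tested. No paired analysis was possible because each group has 1 library, and leaving out a replicate could not be run. Low read numbers limit COX6B2 and the genes of mitochondrial DNA. Why the genes of mitochondrial DNA had so few reads was not tested. The counting interval spans 0 for 28 subunit genes. These include abundant genes with a ratio near 0, such as ATP5B, with 22396 reads in ASC cells and 22156 in control cells. The lack of replicates limits every comparison.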
